A study of Mus musculus with 4 samples.

Results

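The genes described here are the enzymes of glycolysis, the carriers and regulators that feed or drain the pathway, and genes known to respond to low oxygen, measured in the inguinal mammary gland of mice that lack the matrix metalloproteinase Mt1-mmp. They were taken from a list of 36 genes, with the brightest probe set that names a single gene standing for each. Of these, 33 had such a probe set, among 17097 genes on the array. Gpi1, Pgam1 and Eno1 had none and were not analysed here. The mean of the 4 arrays reached the brightness limit of the test (4.94, the median over all probe sets, on the log2 scale) for 28 of the 33.

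Intact gland containing epithelium was taken at postnatal day 10 from Mt1-mmp(-/-) mice (2 arrays), a global knockout, and from Mt1-mmp(+/+) littermates (2 arrays). Both genotypes were on an outbred Swiss Black background, and no other allele or treatment is named in the labels. The tissue was homogenised whole, so RNA of epithelium, fat, vessels, skin and muscle could all contribute, and fewer cells of a type cannot be told apart from less RNA per cell. The labels call the arrays biological replicates, and with so few of them precision is limited.

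Glycolysis splits glucose into pyruvate in the cytosol. Lactate dehydrogenase can then reduce pyruvate to lactate, which leaves the cell through monocarboxylate carriers. When oxygen is low, the transcription factor HIF-1 escapes the prolyl hydroxylases that mark its alpha subunit for destruction, and it switches on many glycolytic enzymes, glucose carriers, mitophagy receptors and the vessel growth factor Vegfa. Several steps are also served by isoforms found mainly in muscle fibres. In a whole gland muscle RNA could contribute to their values, which was not tested.

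Mmp14, the array symbol of the targeted gene, had 5.83 and 5.68 (log2) in the knockout arrays, against 8.92 and 8.73 in the wild-type arrays. The difference was -3.07 ± 0.12 (SE, n = 2 per group), with a limma adjusted p of 0.0738. Whether the probe set lies in the deleted part is not given. The knockout arrays stood apart from each other. The median distance over 11078 tested genes was 0.214 within the knockout pair, against 0.0785 within the wild-type pair. Skeletal muscle markers (27 genes) averaged 4.91 and 9.41 in knockout replicates 1 and 2, against 4.96 and 6.23 in wild-type replicates 1 and 2. Epidermis and hair markers (22 genes) averaged 8.47 and 5.23 in the knockout arrays, against 5.68 and 6.31 in the wild-type arrays. Markers of the labelled tissue were present, with 10 of 11 adipocyte genes and 12 of 14 luminal epithelial genes above the brightness limit. Median differences in knockout replicates 1 and 2 were -0.01 and -0.12 for adipocyte, 0.93 and 0.58 for luminal, -0.46 and -0.12 for endothelial and -0.60 and -0.29 for macrophage markers. The luminal markers also differed between the wild-type arrays, by a median of -0.89 (replicate 2 minus replicate 1). The knockout medians were -0.80 and -0.95 for brown fat markers, of which 7 of 8 tested were lower in both knockout arrays. For erythroid markers they were -1.61 and -1.16, and 4 of 4 were lower in both. Their part in the results was not tested.

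No member passed limma's test with Benjamini-Hochberg adjustment over all genes at 0.05. It called 0 members higher and 0 lower, where 0% of all 11078 tested genes were called in either direction. At an unadjusted limma p under 0.05, 4 members were higher (Bnip3, Bnip3l, Pdk1 and Egln3), where 9.69% of all tested genes were. By the same measure 10 members were lower, where 12.1% of all tested genes were. Those 10 make up 35.7% of the 28 tested members and the 4 make up 14.3%. Both knockout arrays lay above both wild-type arrays in 5 members (17.9%), where 26.3% of all tested genes did so. Both lay below in 13 members (46.4%), where 32.5% of all tested genes did so. The other 10 overlapped between the groups.

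The 3 muscle isoforms were among the overlapping members and were highest in knockout replicate 2. Without them 25 tested members remained, and their median difference was -0.21. Taken singly, knockout replicate 1 had a median of -0.31 and replicate 2 of -0.09. The median of all tested genes was -0.02. The 14 tested enzymes and carriers of glycolysis and lactate had a median of -0.39, with 9 lower and 1 higher in both knockout arrays (64.3% and 7.14%, where all tested genes had 32.5% and 26.3%). Brown fat and erythroid markers were lower in the same arrays, with the medians given above, and their part in these differences was not tested. The 11 tested hypoxia genes and flux regulators were divided, with 4 higher and 4 lower in both knockout arrays (36.4% each).

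**Figure D1:**
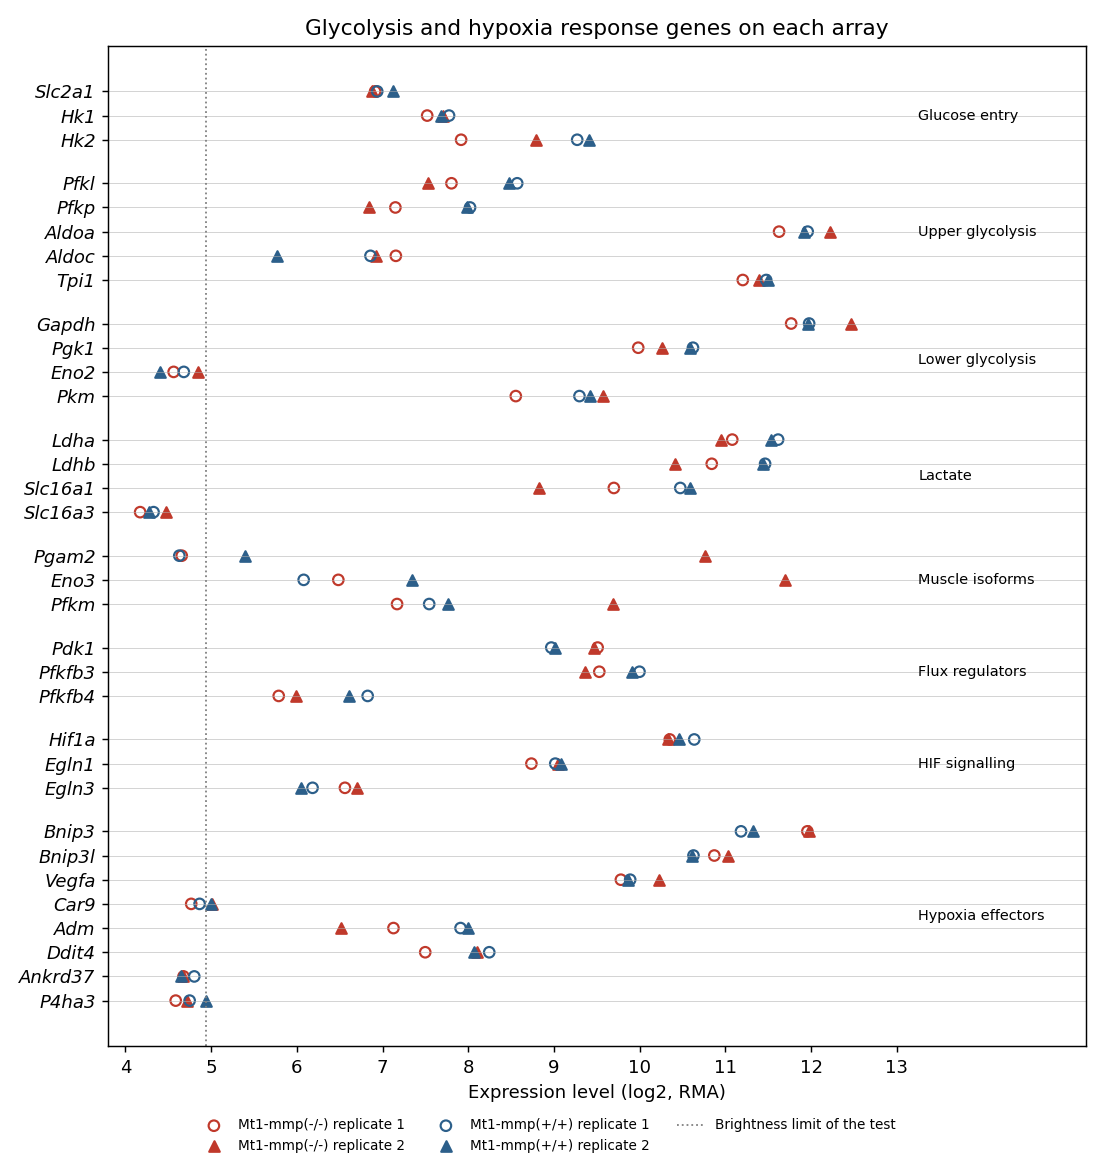
Log2 expression level of the 33 measured members on each array, grouped by role. Red marks are the Mt1-mmp(-/-) arrays and blue marks the Mt1-mmp(+/+) arrays, with circles for replicate 1 and triangles for replicate 2. The dotted line is the brightness limit of 4.94. Pgam2 and Eno3 reach 10.76 and 11.70 on knockout replicate 2 alone.

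Glucose enters cells of the gland through carriers such as Slc2a1 (GLUT1) and is trapped by hexokinase. Slc2a1 had 6.91 and 6.87 in the knockout arrays, against 6.94 and 7.12 in the wild-type arrays, a difference of -0.14 ± 0.11 (SE, n = 2 per group). The knockout values lay just below the wild-type values, by less than the distance between the wild-type arrays. Hk1, the hexokinase found in most tissues, had 7.52 and 7.70 in the knockout arrays, against 7.77 and 7.68 in the wild-type arrays, and the groups overlapped.

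Hk2, the hexokinase of muscle, fat and growing cells, differed more. It had 7.92 and 8.80 in the knockout arrays, against 9.27 and 9.41 in the wild-type arrays. Both knockout arrays were lower, and replicate 1 was the lowest by 0.88. The difference was -0.98 ± 0.33, or 1.98-fold lower, with a limma adjusted p of 0.216 and an unadjusted p of 0.041.

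Phosphofructokinase commits the sugar to glycolysis. Its liver-type subunit gene Pfkl had 7.80 and 7.53 in the knockout arrays, against 8.57 and 8.47 in the wild-type arrays. The groups were well separated, and the difference was -0.85 ± 0.14 (1.81-fold lower, limma adjusted p = 0.117). A dimmer Pfkl probe set gave 6.44 and 6.49 against 7.42 and 7.21, again -0.85, whereas another set near the brightness limit differed by -0.01. The platelet-type subunit gene Pfkp had 7.15 and 6.84 in the knockout arrays, against 8.02 and 7.99 in the wild-type arrays. Its difference was -1.01 ± 0.14, or 2.02-fold lower, and its adjusted p was 0.105 in limma. The wild-type arrays lay 0.03 apart, and knockout replicate 2 differed from replicate 1 by -0.31. Pfkm encodes the muscle subunit and is described with the muscle isoforms.

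Aldolase and triose phosphate isomerase make and interconvert the triose phosphates. Aldoa, the aldolase of muscle and most other tissues, had 11.63 and 12.22 in the knockout arrays, against 11.96 and 11.92 in the wild-type arrays. One knockout array lay below and the other above the wild-type pair, so the mean difference was only -0.01 ± 0.23. The 3 other Aldoa probe sets were also below the wild-type mean in knockout replicate 1, at -0.36 to -0.32, and above it in replicate 2. All the Aldoa sets carry a name that marks possible matches to other transcripts.

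Aldoc, the aldolase best known from brain, had 7.15 and 6.93 in the knockout arrays, against 6.86 and 5.77 in the wild-type arrays. The wild-type arrays themselves lay 1.09 apart. The difference was 0.72 ± 0.41, and it was 0.18 without wild-type replicate 2 and 1.27 without wild-type replicate 1. Tpi1, the isomerase, had 11.20 and 11.39 in the knockout arrays, against 11.47 and 11.50 in the wild-type arrays, a small difference of -0.19 ± 0.11.

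The later steps of the pathway harvest ATP and NADH. Gapdh, which oxidises glyceraldehyde phosphate, had 11.77 and 12.46 in the knockout arrays, against 11.98 and 11.96 in the wild-type arrays. The knockout arrays lay on either side of the wild-type pair, with replicate 2 above it. The 3 control probe sets for Gapdh, at the 3-prime end, middle and 5-prime end, did the same, with 11.29 and 12.08 against 11.59 and 11.46 at the 3-prime end. At the 5-prime end they gave 11.19 and 11.96 in the knockout arrays, against 11.40 and 11.28 in the wild-type arrays.

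Pgk1, phosphoglycerate kinase, was lower in both knockout arrays, with 9.98 and 10.26 against 10.62 and 10.59 in the wild-type arrays. The difference was -0.48 ± 0.13 (1.40-fold lower, limma adjusted p = 0.180), and a second probe set differed by -0.32. Pkm, pyruvate kinase, which makes the final pyruvate, had 8.55 and 9.58 in the knockout arrays, against 9.30 and 9.42 in the wild-type arrays. Knockout replicate 1 lay 0.81 below the wild-type mean and knockout replicate 2 lay 0.22 above it. Eno2, the neuronal enolase, was below the brightness limit, with 4.56 and 4.84 in the knockout arrays, against 4.68 and 4.40 in the wild-type arrays, and was not tested.

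All 3 tested members that make or move lactate were lower in both knockout arrays, where 32.5% of all tested genes were. Another monocarboxylate carrier gene, Slc16a7, is outside the members and overlapped between the groups. It had 7.76 and 6.45 in the knockout arrays, against 6.61 and 6.78 in the wild-type arrays. Ldha, the lactate dehydrogenase subunit that favours lactate production, had 11.08 and 10.94 in the knockout arrays, against 11.61 and 11.53 in the wild-type arrays. Its difference was -0.56 ± 0.10 (SE, n = 2 per group), or 1.48-fold lower, with a limma adjusted p of 0.131. Ldhb, the subunit typical of oxidative tissue, had 10.84 and 10.41 in the knockout arrays, against 11.46 and 11.44 in the wild-type arrays. The difference was -0.83 ± 0.18 (1.77-fold lower, limma adjusted p = 0.145), and a second probe set gave -0.77. The carrier Slc16a1 (MCT1) moves lactate and pyruvate across the cell membrane. It had 9.70 and 8.83 in the knockout arrays, against 10.47 and 10.59 in the wild-type arrays, or -1.27 ± 0.32 (2.41-fold lower, limma adjusted p = 0.167). A second Slc16a1 probe set lay below the brightness limit and differed by 0.07, and with the mean of both sets the difference was -0.60. The lactate exporter Slc16a3 (MCT4), a HIF-1 target, was at background level, with 4.17 and 4.47 in the knockout arrays, against 4.33 and 4.27 in the wild-type arrays, and was not tested.

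The enzymes that steer flux went in different directions. Pdk1, the kinase that shuts the pyruvate dehydrogenase complex and a HIF-1 target, had 9.51 and 9.46 in the knockout arrays, against 8.97 and 9.01 in the wild-type arrays. The pairs were tight and separate, with a difference of 0.50 ± 0.09 (1.41-fold higher, limma adjusted p = 0.130). The other Pdk1 probe sets gave 0.42 and 0.32. Pfkfb3 and Pfkfb4 make fructose 2,6-bisphosphate, the activator of phosphofructokinase, and are both HIF-1 targets too. Pfkfb3 had 9.53 and 9.36 in the knockout arrays, against 10.00 and 9.90 in the wild-type arrays (-0.51 ± 0.11), though a dimmer set differed by 0.11. Pfkfb4 had 5.79 and 5.99 in the knockout arrays, against 6.83 and 6.61 in the wild-type arrays, a difference of -0.83 ± 0.14 with a limma adjusted p of 0.121.

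**Figure D2:**
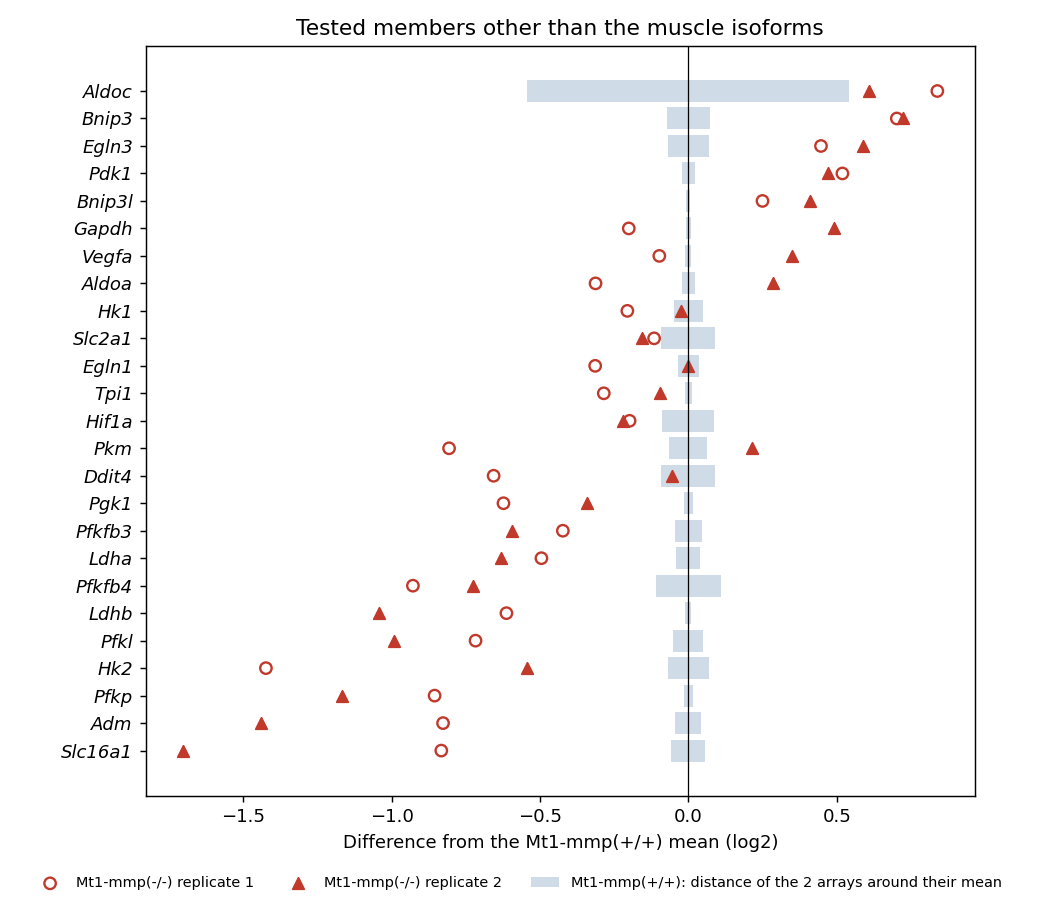
Difference of each Mt1-mmp(-/-) array from the Mt1-mmp(+/+) mean (log2) for the 25 tested members other than the muscle isoforms, ordered by the mean difference. Circles are knockout replicate 1, triangles knockout replicate 2, and pale bars span the distance between the 2 wild-type arrays. Slc16a1, Adm and Pfkp lie at the bottom, Bnip3, Egln3, Pdk1 and Bnip3l near the top, and Pkm, Gapdh and Aldoa have their knockout arrays on opposite sides of 0.

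Of the oxygen-sensing genes themselves, Hif1a, the regulated subunit of HIF-1, had 10.35 and 10.33 in the knockout arrays, against 10.64 and 10.46 in the wild-type arrays. The difference of -0.21 ± 0.11 was close to the 0.18 between the wild-type arrays. HIF-1 is regulated mainly as a protein, which arrays do not measure. Egln1 (PHD2), the main prolyl hydroxylase, had 8.74 and 9.05 in the knockout arrays, against 9.01 and 9.08 in the wild-type arrays, and overlapped. Egln3 (PHD3), a hydroxylase that HIF-1 induces, had 6.56 and 6.70 in the knockout arrays, against 6.18 and 6.04 in the wild-type arrays. It was higher in both knockout arrays, by 0.52 ± 0.11 (limma adjusted p = 0.149), and its other probe set was higher by 0.74.

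Bnip3 and Bnip3l encode receptors on the outer mitochondrial membrane that mark mitochondria for mitophagy. Bnip3 had 11.96 and 11.98 in the knockout arrays, against 11.18 and 11.32 in the wild-type arrays. The knockout arrays were almost equal to each other, and the difference was 0.71 ± 0.10 (SE, n = 2 per group), or 1.64-fold higher, with a limma adjusted p of 0.107. Bnip3l had 10.87 and 11.03 in the knockout arrays, against 10.63 and 10.61 in the wild-type arrays. Its difference was 0.33 ± 0.11 (limma adjusted p = 0.206), and the other sets gave 0.41 and 0.19.

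Other hypoxia effectors did not follow them. Adm, which encodes the vasodilator peptide adrenomedullin, had 7.13 and 6.51 in the knockout arrays, against 7.91 and 7.997 in the wild-type arrays. It was lower in both knockout arrays, by 2.19-fold (-1.13 ± 0.24, limma adjusted p = 0.143). Ddit4 (REDD1), an inhibitor of mTORC1, had 7.497 and 8.10 in the knockout arrays, against 8.24 and 8.06 in the wild-type arrays, and only replicate 1 was set apart. Vegfa had 9.78 and 10.23 in the knockout arrays, against 9.89 and 9.87 in the wild-type arrays, with the knockout arrays on either side of the wild-type pair, and a dimmer probe set differed by -0.13.

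The carbonic anhydrase gene Car9, among the most used markers of hypoxia, stayed near the brightness limit with 4.77 and 5.01 in the knockout arrays, against 4.86 and 5.0 in the wild-type arrays. Ankrd37, another HIF-1 target, had 4.68 and 4.67 in the knockout arrays, against 4.80 and 4.65 in the wild-type arrays. P4ha3, a catalytic subunit of collagen prolyl hydroxylase, had 4.59 and 4.71 in the knockout arrays, against 4.75 and 4.94 in the wild-type arrays. These 3 genes were below the limit and were not tested. At such levels RMA compresses differences, so neither a change nor its absence could be detected.

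HIF-1 binds a short core, the hypoxia response element (HRE), spelled ACGTG or GCGTG. The RefSeq promoter windows of GRCm38.p6, which run from 250 bases before to 50 after a transcript start, were searched for it on both strands. Of the 36 members 35 had a window, all but Bnip3l, and 30 of these 35 genes (85.7%) held the core in at least 1 window. Over all 27025 genes with windows the share was 46.7%, so the letters are common. CACGTG, the E-box bound by Myc and USF proteins, contains the core on both strands and counts there as 2 matches. It occurred in windows of 6 members (17.1%) and of 8.09% of all genes. A match describes the letters only.

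The windows of Bnip3 and Pdk1, higher in both knockout arrays, and of Slc16a1, Adm and Ldha, lower in both, are printed to show that genes of both directions carry the core. Sequences are from RefSeq, 5-prime to 3-prime on the gene's strand, and capitals mark HRE cores on either strand. Bnip3 lies at chr7:138909457-138909756 on the minus strand, with 5 matches. Pdk1 lies at chr2:71872974-71873273 on the plus strand, with 2 matches. Slc16a1 lies at chr3:104638414-104638713 (plus), with 5, Adm at chr7:110627407-110627706 (plus), with 2, and Ldha at chr7:46845554-46845853 (plus), with 7.
Bnip3: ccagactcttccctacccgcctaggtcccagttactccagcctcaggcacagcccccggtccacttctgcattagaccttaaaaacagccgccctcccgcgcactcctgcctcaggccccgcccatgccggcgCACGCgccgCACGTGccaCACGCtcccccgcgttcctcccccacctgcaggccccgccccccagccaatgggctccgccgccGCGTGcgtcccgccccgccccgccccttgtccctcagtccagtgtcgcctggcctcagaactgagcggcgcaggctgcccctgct
Pdk1: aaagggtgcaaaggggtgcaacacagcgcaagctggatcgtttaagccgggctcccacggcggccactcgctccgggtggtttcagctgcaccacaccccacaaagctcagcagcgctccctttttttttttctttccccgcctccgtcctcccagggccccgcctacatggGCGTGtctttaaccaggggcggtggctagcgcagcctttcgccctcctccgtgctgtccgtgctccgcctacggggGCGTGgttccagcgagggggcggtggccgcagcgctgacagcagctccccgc
Slc16a1: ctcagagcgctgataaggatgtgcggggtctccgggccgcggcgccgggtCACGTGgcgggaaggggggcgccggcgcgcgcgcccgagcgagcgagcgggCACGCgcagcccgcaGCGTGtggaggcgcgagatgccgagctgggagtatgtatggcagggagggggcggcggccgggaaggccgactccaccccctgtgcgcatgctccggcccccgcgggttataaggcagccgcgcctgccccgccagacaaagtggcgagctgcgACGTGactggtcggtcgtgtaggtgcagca
Adm: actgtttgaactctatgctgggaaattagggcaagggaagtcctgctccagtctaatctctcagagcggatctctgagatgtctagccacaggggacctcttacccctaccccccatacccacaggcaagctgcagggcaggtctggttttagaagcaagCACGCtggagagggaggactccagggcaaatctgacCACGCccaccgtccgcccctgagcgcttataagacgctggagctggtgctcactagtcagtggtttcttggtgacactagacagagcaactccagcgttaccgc
Ldha: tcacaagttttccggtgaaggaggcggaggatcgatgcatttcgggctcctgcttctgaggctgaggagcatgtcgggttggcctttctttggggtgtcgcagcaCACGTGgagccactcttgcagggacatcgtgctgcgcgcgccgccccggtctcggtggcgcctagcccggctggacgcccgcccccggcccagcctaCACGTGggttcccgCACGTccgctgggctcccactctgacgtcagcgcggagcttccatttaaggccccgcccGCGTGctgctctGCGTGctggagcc

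The most upstream of the Bnip3 cores began 117 bases before the start and the nearest 35 bases before it. In Ldha an E-box began 145 bases and another 48 bases before the start, and in Slc16a1 one began 200 bases before it. The second Ldha window held 2 further cores. Egln3 and Pfkl each held a single core, at 229 and 99 bases before the start. Among the printed windows, those of Ldha (7 matches), Slc16a1 (5) and Adm (2) belong to genes lower in both knockout arrays. Those of Bnip3 (5) and Pdk1 (2) belong to genes higher in both.

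**Figure D3:**
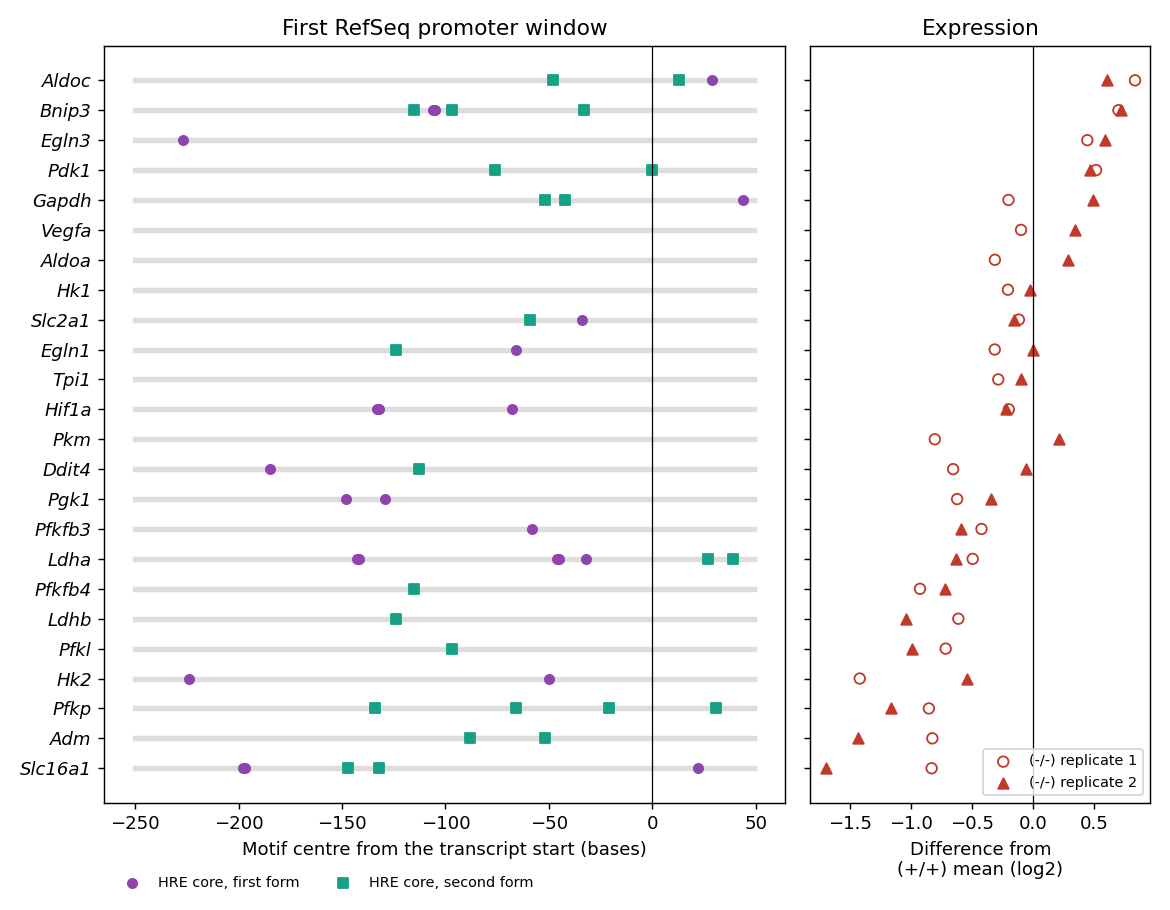
Left, centres of HRE cores in the first RefSeq promoter window of each tested member other than the muscle isoforms, in bases from the transcript start, on either strand. The first form is ACGTG and the second GCGTG. Bnip3l had no window and is not drawn. Cores in later windows are not drawn either, among them all those of Hk1, Pkm, Vegfa and Aldoa. Right, the difference of each Mt1-mmp(-/-) array from the Mt1-mmp(+/+) mean (log2), with genes in the same order. Cores appear beside genes that were higher, such as Bnip3, and genes that were lower, such as Ldha and Slc16a1.

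The 3 members known as muscle isoforms were set apart from the rest by the choice of members. Pgam2, the muscle phosphoglycerate mutase, had 4.66 and 10.76 in knockout replicates 1 and 2, against 4.63 and 5.40 in the wild-type arrays. Eno3, the muscle enolase, had 6.48 and 11.70 in the knockout arrays, against 6.08 and 7.34 in the wild-type arrays. Pfkm had 7.17 and 9.69 in the knockout arrays, against 7.54 and 7.76 in the wild-type arrays. For all 3, replicate 1 lay within or below the wild-type range and replicate 2 far above it.

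The mean differences of 2.70 ± 2.19 for Pgam2, 2.38 ± 1.91 for Eno3 and 0.78 ± 0.91 for Pfkm were therefore no larger than the spread between the knockout arrays. Against the wild-type mean, knockout replicate 2 was higher by 5.75 in Pgam2, 4.99 in Eno3 and 2.04 in Pfkm. Knockout replicate 1 stood at -0.36, -0.23 and -0.48. Pgam2 reached the brightness limit through that single array. The muscle marker list moved with them. Its 21 tested genes had a median of -0.71 in knockout replicate 1, while replicate 2 reached 5.37. Some of these genes, Myh4 among them, reached the brightness limit only through replicate 2, so that median is partly set by the filter. The means of all 27 measured markers, tested or not, were 4.91 and 9.41 in knockout replicates 1 and 2. Myh4, the fast myosin heavy chain, was higher by 8.26 in replicate 2. The creatine kinase Ckm (6.55) and the fast troponins Tnnt3 (6.50) and Tnni2 (6.18) did the same. Of the 27 measured markers 19 were below the brightness limit in knockout replicate 1 and 3 in knockout replicate 2, against 18 and 8 in the wild-type replicates. Wild-type replicate 2 was also above wild-type replicate 1, by a median of 0.79 in the muscle markers and by 1.26 in Eno3. The part of muscle RNA in these values was not tested.

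The Pgam2 window is printed because its gene is the member that differed most between the knockout arrays. It lies at chr11:5803747-5804046 on the minus strand of GRCm38.p6, and capitals mark a match to the MEF2 consensus, bound by a factor of muscle genes, 80 bases before the start. The consensus was chosen after this window had been read. Pgam2 was the only one of the 35 members with a window that held a match (2.86%), and 3.70% of all genes with windows did. Because the consensus was picked from this window, the match in it is no test of a link to muscle genes. None of its window's letters spelled an HRE core.
Pgam2: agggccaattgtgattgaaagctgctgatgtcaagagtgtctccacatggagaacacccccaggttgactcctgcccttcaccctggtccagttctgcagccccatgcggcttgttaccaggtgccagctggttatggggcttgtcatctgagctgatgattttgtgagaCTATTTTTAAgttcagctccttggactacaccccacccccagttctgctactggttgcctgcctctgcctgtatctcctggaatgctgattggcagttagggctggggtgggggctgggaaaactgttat

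**Figure D4:**
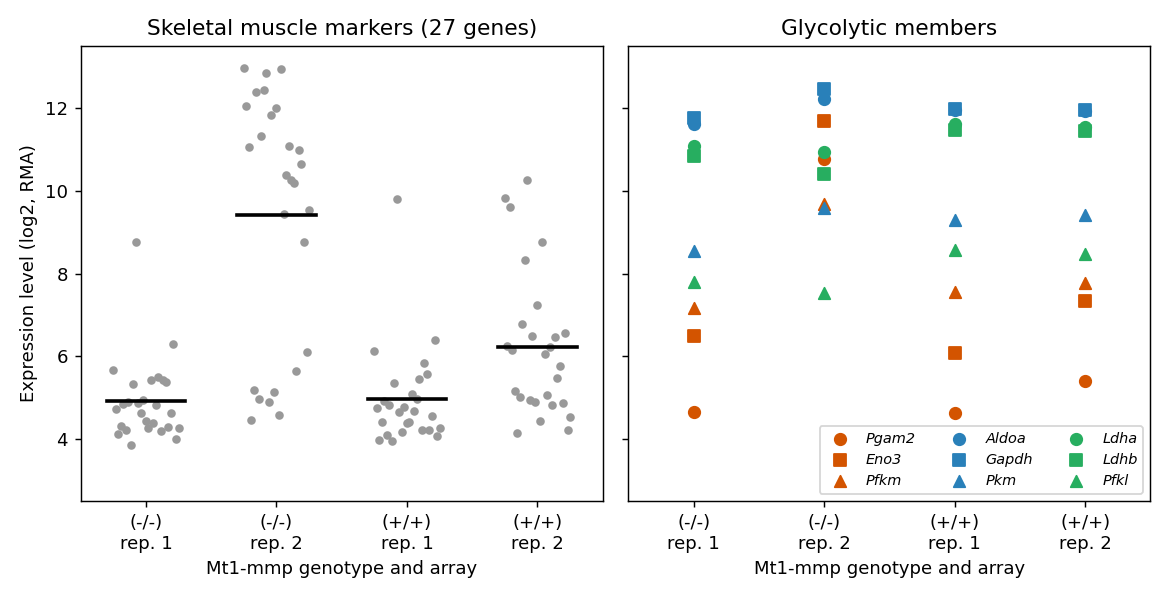
Left, log2 levels of the 27 skeletal muscle markers on each array (grey points) with their mean (black line), in the order of the 2 Mt1-mmp(-/-) and the 2 Mt1-mmp(+/+) arrays. Right, levels of 9 glycolytic members on the same arrays. The marker mean of 9.41 on knockout replicate 2 stands beside high Pgam2, Eno3 and Pfkm there, while Ldha, Ldhb and Pfkl are lower on both knockout arrays.

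Taken array by array, 7 of the 28 tested members were under the wild-type mean in knockout replicate 1 yet over it in replicate 2. Of all 11078 tested genes 1380 did so. The 7 members were the 3 muscle isoforms with Aldoa, Gapdh, Pkm and Vegfa. No tested member went the opposite way, where 1957 of the 11078 genes did. Members without the muscle isoforms differed between the knockout arrays by a median of 0.275. Pkm (1.02), Hk2 (0.88), Gapdh (0.69), Ddit4 (0.60) and Aldoa (0.60) were higher in knockout replicate 2 than in replicate 1, and Slc16a1 (-0.87), Adm (-0.61) and Ldhb (-0.43) were lower in it. Pdk1 (-0.05), Bnip3 (0.02) and Hif1a (-0.02) were nearly equal in both knockout arrays.

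Leaving out a knockout array changes the count of calls, because the spread then comes from the wild-type pair alone, and the remaining knockout array is taken to have that same spread. Without knockout replicate 2, the array with muscle markers, limma called 2 members higher at an adjusted p under 0.05, Bnip3 (adjusted p = 0.0387) and Pdk1 (0.0404), where 6.73% of all genes were called higher. It called 11 of the 28 tested members lower (39.3%), where 4.99% of all genes were. These were Hk2, Pfkl, Pfkp, Pgk1, Pkm, Ldha, Ldhb, Slc16a1, Pfkfb4, Adm and Ddit4. The 17 tested epidermis and hair markers had a median difference of 2.37 in knockout replicate 1, and their part was not tested. Some of these markers, such as Lor, reached the brightness limit only through that array, so the median is partly set by the filter. The cornified envelope genes Lor (4.64) and Flg (4.59), the desmocollin gene Dsc1 (3.796) and the hair follicle gene Tchh (2.37) were all above the wild-type mean there. Flg was below the brightness limit and was not tested.

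Without knockout replicate 1, limma called 9 members higher at an adjusted p under 0.05, where 13.1% of all genes were called higher. They were the 3 muscle isoforms, Gapdh, Pdk1, Egln3, Bnip3, Bnip3l and Vegfa. Pgam2 had reached the brightness limit through the knockout array kept here, so its place among them is partly set by the filter. It called 10 members lower (35.7%), where 24.6% of all genes were, namely Hk2, Pfkl, Pfkp, Pgk1, Ldha, Ldhb, Slc16a1, Pfkfb3, Pfkfb4 and Adm. The single-array fits share the wild-type arrays, so neither is independent of the other.

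Further genes of the pathway came from a list chosen for their roles. Among other glycolytic genes, 14 of 18 measured were tested, 1 was higher (7.14%) and 5 were lower (35.7%) in both knockout arrays, and 0 passed the adjusted test. The shares over all tested genes were 26.3% and 32.5%. Bpgm, which diverts glycolysis to make 2,3-bisphosphoglycerate in red cells, had 7.90 and 7.90 in the knockout arrays, against 9.29 and 9.37 in the wild-type arrays (-1.43 ± 0.09, limma adjusted p = 0.0937). The 4 tested erythroid markers, which include Bpgm itself, were lower as well, and their part was not tested. Tigar, which lowers fructose 2,6-bisphosphate, differed by -0.49 ± 0.10, the ADP-dependent glucokinase gene Adpgk by -0.44 ± 0.22, and Bsg, the chaperone of the Slc16a1 carrier, by -0.19 ± 0.11.

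The fate of pyruvate in mitochondria was represented by 15 tested genes, of which 4 were higher (26.7%) and 6 lower (40%) in both knockout arrays, where 26.3% and 32.5% of all tested genes were, and 0 passed the adjusted test. Subunits of the pyruvate dehydrogenase complex, the target of Pdk1, were among those lower. Dlat had 9.58 and 9.06 in the knockout arrays, against 10.11 and 10.11 in the wild-type arrays (-0.79 ± 0.21). Pdhx differed by -0.87 ± 0.19 and Pdhb by -0.50 ± 0.16. Pck2, the mitochondrial phosphoenolpyruvate carboxykinase, was higher at 8.42 and 8.44 in the knockout arrays, against 7.82 and 7.91 in the wild-type arrays (0.57 ± 0.10, limma adjusted p = 0.121). Markers of brown fat, a tissue rich in such enzymes, were lower in the same arrays, and their part was not tested.

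Among 7 tested genes of the HIF system outside the members, 3 were higher (42.9%) and 1 was lower (14.3%) in both knockout arrays, where 26.3% and 32.5% of all tested genes were, and 0 passed the adjusted test. Vhl, which tags hydroxylated HIF for destruction, differed by -0.37 ± 0.10 and Hif1an, which blocks HIF by another hydroxylation, by 0.50 ± 0.16. Arnt, the partner of Hif1a, differed by 0.30 ± 0.14 and Hif3a by -0.40 ± 0.27. Of 31 tested further hypoxia targets 10 were higher (32.3%) and 13 lower (41.9%) in both knockout arrays, where 26.3% and 32.5% of all tested genes were, and 0 passed the adjusted test. Mxi1, a Myc antagonist, had 8.86 and 9.04 in the knockout arrays, against 8.003 and 8.11 in the wild-type arrays (0.90 ± 0.12, limma adjusted p = 0.105). The histone demethylase gene Kdm3a was higher by 0.71 ± 0.11. Higd1a, a mitochondrial protein gene, had 9.63 and 9.17 in the knockout arrays, against 10.77 and 10.70 in the wild-type arrays (-1.34 ± 0.19), and the heme oxygenase gene Hmox1 differed by -0.87 ± 0.11. The median of these 31 was -0.16, against -0.02 for all tested genes.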

How the data were processed

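RNA of 4 glands was hybridised to Affymetrix mouse arrays, 1 per sample, after amplification that starts at the 3-prime end of transcripts, as the labels' protocols state. Per the submitters' processing notes, which give no versions, the authors used RMA in affy. The deposited values are log2 expression values, a scale read from the values. RMA includes a normalisation between arrays, which can remove a change shared by most genes. The deposited array medians were 4.92 and 4.98 in the knockout arrays and 4.92 and 4.92 in the wild-type arrays. Detection calls and depth were not used here.

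Names came from the platform annotation, where 28898 of 45141 probe sets listed 1 gene, 551 several and 15692 none. 28689 of the 28898 matched RefSeq by gene number. The brightest probe set per gene was kept and genes with a mean of at least 4.94 were tested (11078). The genotypes were tested by limma 3.58.1 under R 4.3.3 (lmFit, eBayes, no covariate, two-sided, Benjamini-Hochberg at 0.05), and SEs are limma's moderated values. The test was checked on simulated data. An exact permutation test of 2 against 2 cannot go below 0.333 and was not used.

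Members and lists were chosen with earlier results of these data known. All members are named, with up to 4 further genes per pathway list by smallest p and up to 4 muscle and 4 epidermis markers by largest single-array difference. Slc16a7 is named besides as a further lactate carrier. The replicate numbers did not pair arrays (correlation of deviations -0.09). Alternatives were other filters, probe set choices, scalings, priors, array weights, the replicate block and leaving out each array.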

Additional observations from a re-analysis of the deposited data

How the results depend on the processing

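With all 4 arrays, limma called 0 members and 0 genes in either direction at an adjusted p under 0.05, also when all genes were kept, when the limit was set at the 75th percentile, with averaged or only specific probe sets, with 3 scalings, an intensity trend, a robust prior or array weights. With the replicate number as a block it again called 0 higher and 0 lower. Counts moved only when a knockout array was left out. Over the fits that each leave out 1 array, genes called higher ran from 0 to 1455 and lower from 0 to 2725, and members called higher from 0 to 9 and lower from 0 to 11, with 0 when a wild-type array was left out. Without probe sets that may match several transcripts, 19 members could be tested. The Pfkl difference then went from -0.85 to -0.0066, because only its set near the brightness limit remained.

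Signs reversed for 7 of 28 members, and no member of the 28 was called with all arrays. Aldoa was 0.0861 after cyclic loess and 0.015 after quantile normalisation, and Vegfa was -0.0035 with the mean of its probe sets. Leaving out 1 array, differences ran from -0.31 to 0.29 for Aldoa, -0.20 to 0.49 for Gapdh, -0.81 to 0.22 for Pkm, -0.36 to 5.75 for Pgam2, -0.23 to 4.99 for Eno3, -0.48 to 2.04 for Pfkm and -0.10 to 0.35 for Vegfa. When all probe sets were averaged per gene, some differences moved by over 1.5 times, to -0.60 for Slc16a1, -0.55 for Pfkp, -0.20 for Pfkfb3, -0.12 for Hif1a, -0.07 for Hk1 and 0.35 for Aldoc, and the added sets were below the brightness limit except that of Pfkfb3. The ranges without 1 array follow from knockout arrays on opposite sides of the wild-type mean. The other 21 members kept their sign in every alternative run. Levels near the background limit what could be seen for Eno2, Slc16a3, Car9, Ankrd37 and P4ha3.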
